A study of Mus musculus with 6 samples.

Results

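The 9 genes described here make or handle small reactive molecules of activated phagocytes: nitric oxide (Nos2, with its competitor Arg1), itaconate (Acod1) and superoxide (Cybb, Cyba, Ncf1, Ncf4, Rac2 and the superoxide remover Sod2). They were taken by symbol, each as the brightest row annotated with that symbol alone, and all 9 of 9 had exactly 1 such row among 22180 genes with a row of their own. Of these, 8 lay above the level filter, a mean log2 value of 6.15 that is the median over all rows, and were tested with 12212 genes in all. Arg1 lay below it.

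The cells were BV2, an immortalised wild-type mouse microglial line. Telmisartan blocks the receptor of angiotensin II and also partly activates the nuclear receptor PPARG. GW9662 is an antagonist of PPARG, and lipopolysaccharide (LPS), from the outer membrane of Gram-negative bacteria, is sensed through TLR4. In the group written Tel+LPS, 3 samples had telmisartan for 2 h and then LPS for 1 h. In the group written Tel+GW+LPS, 3 samples had GW9662 beside telmisartan, followed by LPS on the same schedule, 3 h in all. The comparison asks what the antagonist adds in cells that all received telmisartan and LPS, and none of the 6 samples lacked LPS, so no value is an induction by LPS. The labels give no doses, call the samples of a group independent and do not say that they came from separate cultures, so the p-values rest on a spread between samples that could be technical in part.

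The labelled cell type had most of its markers. Of 15 microglia and macrophage markers, 13 lay above the level filter, as did 12212 of all 22180 genes. Csf1r, Tyrobp, Trem2 and Cd68 were bright. Aif1 (6.96 and 6.76, means without and with GW9662), Cx3cr1 (6.97 and 7.07), C1qa (6.88 and 6.93) and C1qc (6.94 and 6.76) lay nearer to the filter. P2ry12 (5.87 and 5.77) and Tmem119 (6.08 and 6.04), both markers of resting microglia in brain, lay below it. Averaged over the list, marker level ranged from 9.20 to 9.39 without GW9662 and from 9.20 to 9.25 with it. Of the 13, 9 had a negative and 4 a positive difference and none passed. By limma 1 had an unadjusted p under 0.05, beside 4.45% of all genes tested. It was Aif1 (-0.20), whose 3 arrays with GW9662 were all lower, as in 5.36% of all genes tested. C1qb had a larger difference, -0.29 ± 0.13, with groups that overlapped. The part of these markers in the differences of the 9 genes was not tested. Of 8 neutrophil markers, a cell type rich in the same oxidase, 7 lay below the filter, and Elane, just above it, differed by -0.10. Of the 20 on-array markers of astrocytes, neurons, oligodendrocytes and fibroblasts 9 lay above it and none passed the test. Syn1, of neurons (8.58 and 8.46), and Cnp, of oligodendrocytes (7.48 and 7.54), were brighter than Aif1 and Cx3cr1. The rest of the 9 had group means of at most 6.88 (Aldh1l1 with GW9662). A level above the filter is therefore no sign of a cell type by itself. Replicate 3 without GW9662 and replicate 2 with it stood apart from the other 4 arrays on the first principal component (scores of 14.6 and 7.55, against -8.15 to -0.98), so the values of Acod1, Sod2 and Cybb are also given without both.

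Inducible nitric oxide synthase, the product of Nos2, makes nitric oxide from arginine after bacterial stimuli, and arginase, the product of Arg1, draws on the same arginine. The enzyme encoded by Acod1, formerly Irg1, diverts aconitate from the citrate cycle to itaconate, which slows succinate dehydrogenase and modifies KEAP1. The phagocyte NADPH oxidase has a membrane core of the Cybb and Cyba proteins, and it makes superoxide once cytosolic proteins, among them those of Ncf1 and Ncf4, and a Rac GTPase join it.

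No member of the set passed the test when GW9662 was added. The log2 differences (Tel+GW+LPS minus Tel+LPS) of the 8 tested members ran from -0.16 for Cybb to 0.029 for Ncf1. The lower side held Cybb, Acod1, Sod2 and Rac2, and Nos2, Cyba, Ncf1 and Ncf4 lay within 0.03 of 0. By limma with Benjamini-Hochberg adjustment over all genes, 0 of 8 had an adjusted p under 0.05, against 0.0409% of all genes tested, and 0 of 8 had an unadjusted p under 0.05, against 4.45% of all genes. In 0 of 8 were the 3 arrays of one group wholly above those of the other, against 9.37% of all genes tested (4.01% higher and 5.36% lower with GW9662). The median difference was -0.042 over the 8 members and -0.019 over all genes tested, and 5 of 8 members and 58.8% of all genes had a negative difference.

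**Figure D1:**
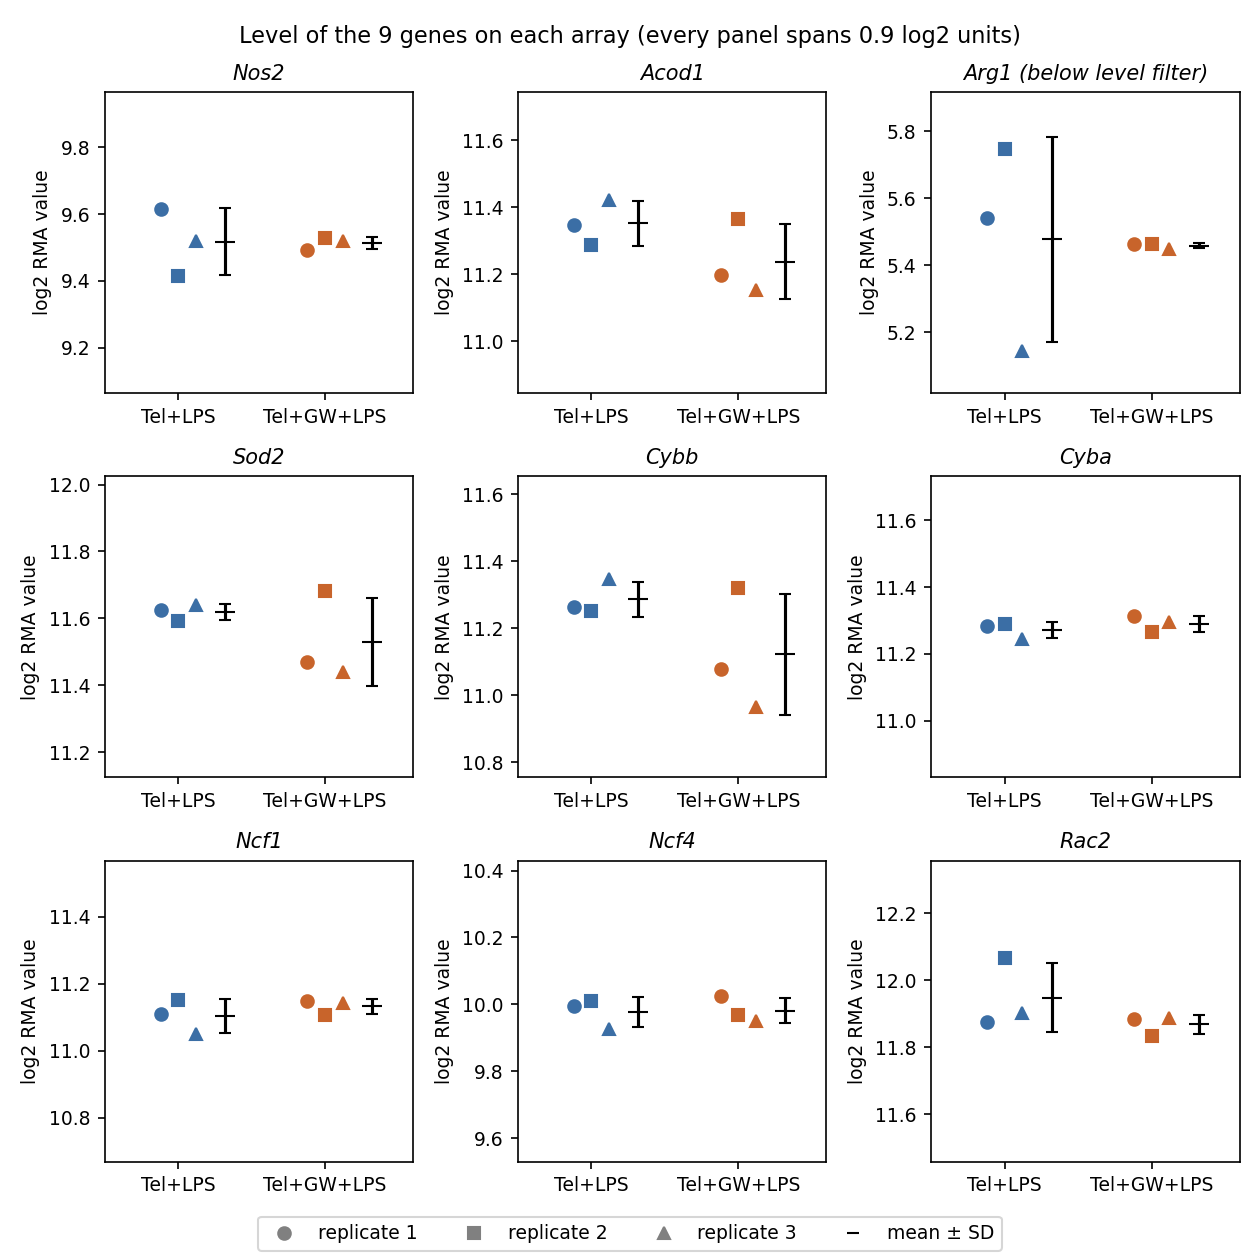
Deposited log2 RMA value (vertical axis) of each of the 9 genes on each of the 6 arrays, by group; symbols mark replicates 1 to 3, and the bars show mean ± SD of 3 arrays. The groups overlap in every panel, and the points of Arg1, which lies below the level filter, spread most widely in the group without GW9662 (SD 0.31).

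Nos2 stood at the same level in both groups. Its log2 values were 9.62, 9.41 and 9.52 without GW9662 and 9.49, 9.53 and 9.52 with it. All 3 arrays with GW9662 lay inside the range of the 3 without. The means were 9.52 ± 0.10 and 9.51 ± 0.018 (SD, n = 3 in each group), and the difference was -0.0038 ± 0.071 (SE; limma adjusted p = 0.999). Its 95% interval ran from -0.17 to 0.16 on the log2 scale, which is 0.892-fold to 1.12-fold, so a change of Nos2 beyond that range in either direction lies outside the interval. The sign was not settled, since it was 0.046 without replicate 1 and -0.055 without replicate 2 of Tel+LPS, and 0.011 or 0.024 when the arrays were centred on their median or quantile normalized again, and -0.084 with array weights.

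Arg1 was dim on every array. Its log2 values were 5.54, 5.75 and 5.14 without GW9662 and 5.46, 5.46 and 5.45 with it. The arrays with GW9662 agreed closely and lay inside the wide range of the others. From the fit without the level filter, the difference was -0.018 ± 0.14, with a 95% interval of -0.34 to 0.30 that is the widest of the 9 genes, and at this brightness it carries no call.

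The genes that supply arginine and the cofactor of nitric oxide synthases gave no call either. Of a list of 19, 14 were tested, 7 with a positive and 7 with a negative difference, 0 passed in either direction (0 at an unadjusted p under 0.05), and their median difference was 8.8e-05. Gch1, which starts the synthesis of the cofactor tetrahydrobiopterin, differed by 0.15 ± 0.083, and Pts, the next enzyme of that route, by -0.13 ± 0.078. On single arrays Gch1 lay at 7.54, 7.55 and 7.61 without GW9662 and at 7.59, 7.87 and 7.68 with it, so that the groups overlapped on 1 array, and without replicate 2 of Tel+GW+LPS the difference was 0.070. Odc1, which turns the ornithine made by arginase into polyamines, differed by 0.072 ± 0.097, and Nos1, the neuronal synthase, by -0.080 ± 0.074. With 1 array left out Odc1 ranged from -0.0036 to 0.16, Nos1 from -0.13 to -0.036 and Pts from -0.18 to -0.080, and without both arrays that stood apart Nos1 differed by -0.0015 and Gch1 by 0.092. Arg2, the mitochondrial arginase, lay below the filter at 5.89 and 5.97.

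Acod1 was slightly lower in mean with GW9662, by less than the spread between arrays could separate. Its log2 values were 11.35, 11.29 and 11.42 without GW9662 and 11.20, 11.36 and 11.15 with it. Replicates 1 and 3 with GW9662 lay below all 3 arrays without it, and replicate 2 lay among them. The means were 11.35 ± 0.067 and 11.24 ± 0.11 (SD, n = 3 in each group), and the difference was -0.11 ± 0.078 (limma adjusted p = 0.994), with a 95% interval of -0.29 to 0.064, or 0.817-fold to 1.05-fold. In RNA from whole cultures, fewer cells that express a gene and less of its RNA per cell cannot be told apart.

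Sod2, the manganese superoxide dismutase of mitochondria and a gene that NF-kB induces, had the same 2 low arrays as Acod1. Its log2 values were 11.63, 11.59 and 11.64 without GW9662, within 0.048 of each other, and 11.47, 11.68 and 11.44 with it. Replicates 1 and 3 with GW9662 were again below all 3 others and replicate 2 was above all of them. The means were 11.62 ± 0.025 and 11.53 ± 0.13, and the difference was -0.089 ± 0.079 (limma adjusted p = 0.994; 95% interval -0.27 to 0.091).

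Cybb, the catalytic subunit of the oxidase, had the largest difference of the 8 tested members, and it too did not pass. Its log2 values were 11.26, 11.25 and 11.35 without GW9662 and 11.08, 11.32 and 10.97 with it. Replicates 1 and 3 of the group with GW9662 were the lowest of the 6 arrays, and replicate 2 was second only to replicate 3 without GW9662. The means were 11.29 ± 0.052 and 11.12 ± 0.18, and the difference was -0.16 ± 0.095 (limma adjusted p = 0.994), with a 95% interval of -0.38 to 0.054, or 0.767-fold to 1.04-fold.

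In Acod1, Sod2 and Cybb the size of the difference moved with single arrays of the group with GW9662. Without replicate 2 of Tel+GW+LPS, one of the arrays that stood apart, the differences were -0.18 ± 0.074 for Acod1, -0.165 ± 0.067 for Sod2 and -0.26 ± 0.076 for Cybb, with adjusted p of 0.728, 0.722 and 0.683. Without replicate 3 of the same group they were -0.071, -0.044 and -0.086, and without replicate 1 Sod2 differed by -0.059. Without both arrays that stood apart they were -0.14, -0.15 and -0.23, none past the threshold. The sign stayed negative under all 17 alternatives for these 3 genes. Some of these, among them the changes of filter, moderation and replicate block, leave the difference itself as it was by construction.

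**Figure D2:**
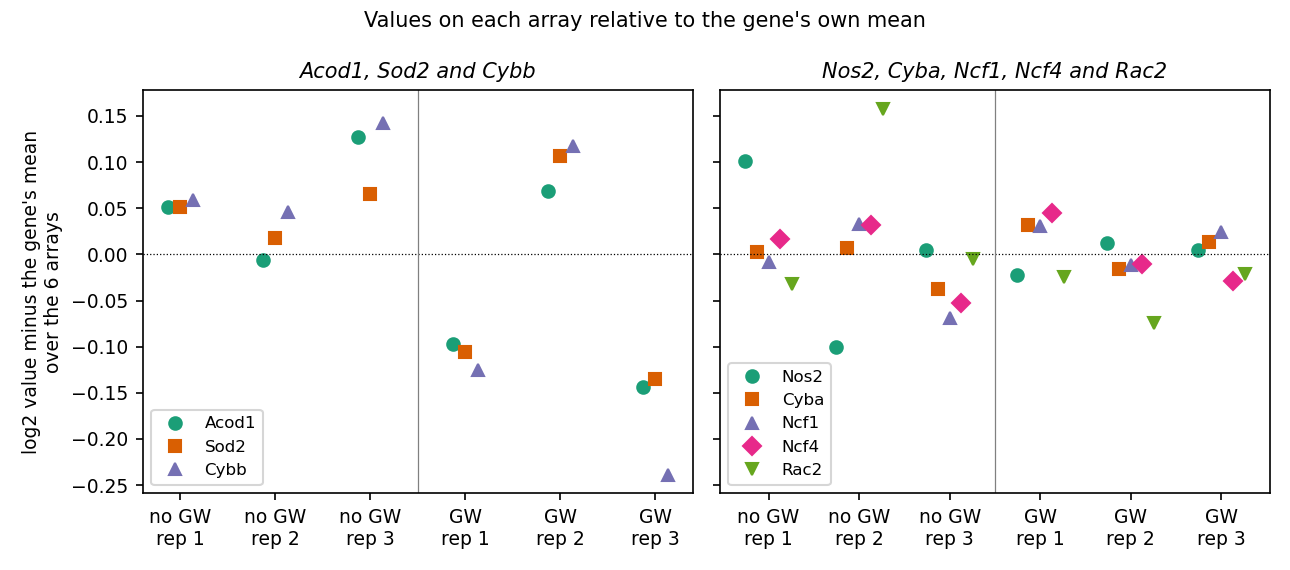
Log2 value of each tested member minus its own mean over the 6 arrays (vertical axis), by array, with Acod1, Sod2 and Cybb on the left and the other 5 on the right. On the left the 3 genes share their low arrays, -0.24 to -0.097 on replicates 1 and 3 with GW9662, while replicate 2 with GW9662 lies at 0.069 to 0.12. On the right the 5 genes lie within 0.045 of their means on replicates 1 and 3 with GW9662. The groups overlap for every gene in both panels.

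The likeness of the 3 genes across arrays can be put as a root mean square difference between centred log2 values over the 6 arrays. Cybb, the tested member with the largest SD, lay 0.050 from Acod1, and 0.483% of all genes tested lay closer to it. Sod2 lay 0.055 from it, with 0.721% closer, whereas the other 5 tested members lay 0.14 to 0.16 away, near the median of 0.16 over all genes. The genes nearest to Cybb were Zfp667 at 0.020, Trim2 and Mterf3 at 0.023 each. The measure is not scaled to each gene's spread, so a gene that varies little lies away from Cybb whatever its pattern. The 3 genes were set apart by values on these same arrays. All these profiles share 6 arrays and the arrays that stood apart, and the values are a description.

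Sequence before the start of transcription was held for 5 of the 9 genes in a RefSeq promoter table (GRCm38.p6), and it is shown for the 3 that shared their 2 low arrays, as the 250 bases before the start on the gene's own strand. Capitals mark matches on either strand to GGG followed after any 5 bases by CC (a loose form of the NF-kB site), to GAAA followed after any 2 bases by GAAA (the core of the interferon response element) and to GAGGAA (the core bound by PU.1, a factor of the myeloid lineage). The Acod1 sequence is chr14:103046762-103047011 (plus strand), the Sod2 sequence chr17:13007589-13007838 (plus strand) and the Cybb sequence chrX:9469325-9469574 (minus strand).
Acod1: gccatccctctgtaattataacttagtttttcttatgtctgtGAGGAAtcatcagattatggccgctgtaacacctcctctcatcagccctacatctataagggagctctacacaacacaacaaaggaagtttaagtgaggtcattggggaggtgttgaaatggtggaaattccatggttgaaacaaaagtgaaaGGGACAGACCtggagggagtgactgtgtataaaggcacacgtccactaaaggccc
Sod2: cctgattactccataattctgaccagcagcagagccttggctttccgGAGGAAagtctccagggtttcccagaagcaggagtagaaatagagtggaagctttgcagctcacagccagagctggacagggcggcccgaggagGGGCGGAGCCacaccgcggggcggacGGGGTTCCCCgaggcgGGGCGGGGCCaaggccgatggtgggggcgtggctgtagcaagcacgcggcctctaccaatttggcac
Cybb: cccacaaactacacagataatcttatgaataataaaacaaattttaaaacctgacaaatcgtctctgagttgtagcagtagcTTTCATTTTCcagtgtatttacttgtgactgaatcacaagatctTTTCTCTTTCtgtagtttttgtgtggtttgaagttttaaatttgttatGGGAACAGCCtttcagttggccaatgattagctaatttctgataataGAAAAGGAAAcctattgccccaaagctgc
In Acod1 the capitals are a GAGGAA 208 to 203 bases and an NF-kB-type match 55 to 46 bases before the start. Sod2 has a GAGGAA and 3 matches of the NF-kB type, of which the one 83 to 74 bases before the start matches on both strands. Cybb has 1 match of that type and 3 interferon-type matches, the nearest 29 to 20 bases before the start. Of 32851 promoters in the table, 45.8% held the NF-kB-type letters, 2.98% the interferon-type letters and 23.3% GAGGAA, so that the first and the last are common by themselves. Among the 2 members with an entry not printed, Cyba matched the NF-kB type only, with overlapping matches, and Ncf1 matched both the NF-kB and the interferon type. A match of letters is no evidence of binding in these cells.

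The partner and the cytosolic subunits of the oxidase differed by no more than 0.029 in mean. Cyba, whose product holds the Cybb protein in the membrane, had log2 values of 11.28, 11.29 and 11.24 without GW9662 and 11.31, 11.26 and 11.29 with it. Its 6 arrays were so close that only 0.655% of all genes tested had a smaller SD. The difference was 0.019 ± 0.059 (limma adjusted p = 0.996), and the 95% interval of -0.12 to 0.15 allows 0.922-fold to 1.11-fold.

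Ncf1, the organiser subunit whose phosphorylation starts assembly, lay at 11.11, 11.15 and 11.05 without GW9662 and at 11.15, 11.11 and 11.14 with it. The ranges overlapped almost wholly, and the difference was 0.029 ± 0.062 (limma adjusted p = 0.994; 95% interval -0.11 to 0.17). Ncf4, the subunit that binds the phosphoinositide of phagosome membranes, lay at 10.00, 10.01 and 9.93 without and 10.02, 9.97 and 9.95 with GW9662. Its difference of 0.0034 ± 0.062 (limma adjusted p = 0.999; 95% interval -0.14 to 0.15) had no settled sign: it was 0.040 with quantile normalization repeated and -0.022 without replicate 3 of Tel+LPS.

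Rac2, the GTPase that switches the oxidase on in blood-forming cells, was 1 array away from level. Its log2 values were 11.88, 12.07 and 11.90 without GW9662 and 11.88, 11.83 and 11.89 with it. Replicate 2 without GW9662 was the high array, and the other 5 lay between 11.83 and 11.90. The means were 11.95 ± 0.10 and 11.87 ± 0.030, and the difference of -0.080 ± 0.072 (limma adjusted p = 0.994; 95% interval -0.24 to 0.085) was -0.021 without that replicate. Rac1, its widely expressed relative, lay at 11.38, 11.45 and 11.41 without and 11.42, 11.50 and 11.48 with GW9662, a difference of 0.051 ± 0.061. The proteins of these 2 genes are closely related, and whether the probes of one respond to the other was not tested.

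**Figure D3:**
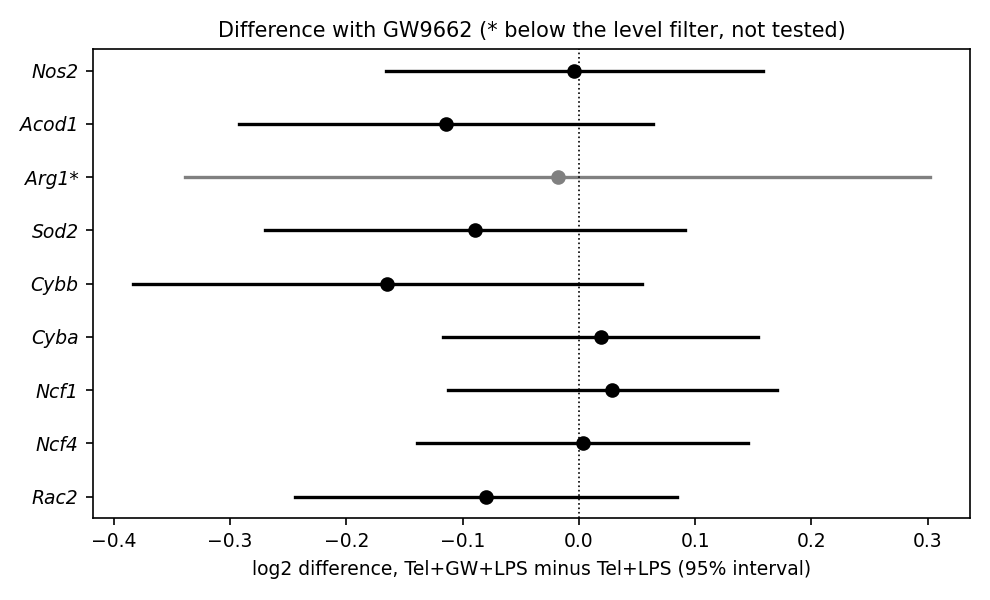
Log2 difference (Tel+GW+LPS minus Tel+LPS, horizontal axis) of each of the 9 genes, as a point with the 95% interval of the moderated fit; grey marks Arg1, which was below the level filter. Every interval holds 0, and among the tested genes none reaches beyond -0.38 or 0.17.

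Other genes of the oxidase and of its activation gave 0 calls in either direction among 9 tested of a list of 18, with 5 positive and 4 negative differences, 1 gene at an unadjusted p under 0.05 and a median of 0.033. Prkcb, a kinase that phosphorylates the Ncf1 protein, had the largest difference of the list, with values of 6.34, 6.38 and 6.59 without GW9662 and 6.24, 6.20 and 6.00 with it. All 3 arrays with GW9662 lay below the others, as in 5.36% of all genes tested for this direction, and the difference of -0.29 ± 0.094 did not pass (limma adjusted p = 0.949; the 16 alternatives that kept the gene gave 0.227 to 1). Its mean with GW9662, 6.15, lay at the level filter. Vav1, an exchange factor that loads Rac, differed by 0.053 ± 0.070, and Pik3cg, a kinase of the phosphoinositides, by -0.045 ± 0.067. Vav1 differed by 0.011 without replicate 2 and Pik3cg by -0.0025 without replicate 3 of Tel+LPS. The catalytic subunits of the other oxidases, Nox1, Nox3, Nox4, Duox1 and Duox2, and Noxa1, the activator of the Nox1 complex, were all below the level filter, between 5.10 and 5.70 in group means.

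Citrate cycle genes, from which the substrate of Acod1 comes, gave no call. Of 20 genes 19 were tested, 10 with positive and 9 with negative differences, 0 passed in either direction (0 at an unadjusted p under 0.05), and the median was 0.013. Idh1, the cytosolic isocitrate dehydrogenase that makes NADPH, differed by 0.12 ± 0.078 and Sdhb, a subunit of the succinate dehydrogenase that itaconate inhibits, by 0.070 ± 0.064. Idh3a, of the mitochondrial NAD-dependent enzyme, differed by -0.10 ± 0.094 and Suclg2, of succinyl-CoA ligase, by -0.060 ± 0.083. Without replicate 2 of Tel+GW+LPS, Idh3a differed by -0.19 and Suclg2 by -0.12, and without replicate 3 of that group by -0.045 and -0.00057. Idh1 differed by 0.066 without replicate 2 of Tel+LPS, and Sdhb by 0.038 without replicate 3 of Tel+GW+LPS and by 0.11 without both arrays that stood apart.

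Removal of superoxide and peroxide was represented by 8 genes, all tested, with 5 positive and 3 negative differences, 0 calls (0 at an unadjusted p under 0.05) and a median of 0.010. Sod1, the copper and zinc enzyme of the cytosol, lay at 11.92, 11.98 and 11.99 without GW9662 and at 12.08, 12.21 and 11.98 with it. The groups met at 11.98 to 11.99, and the difference was 0.13 ± 0.075, opposite in sign to that of Sod2, with neither past the threshold and the contrast between them not tested. Catalase, the product of Cat, differed by 0.12 ± 0.098, which was 0.027 without replicate 3 of Tel+LPS. Sod3, the extracellular enzyme, differed by -0.058 ± 0.078 and Prdx3, the mitochondrial peroxiredoxin, by -0.032 ± 0.075. With 1 array left out Sod1 ranged from 0.075 (without replicate 2 of Tel+GW+LPS) to 0.19 (without its replicate 3), Sod3 from -0.11 (without replicate 3 of Tel+LPS) to -0.0032 (without its replicate 2) and Prdx3 from -0.098 to 0.013.

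**Figure D4:**
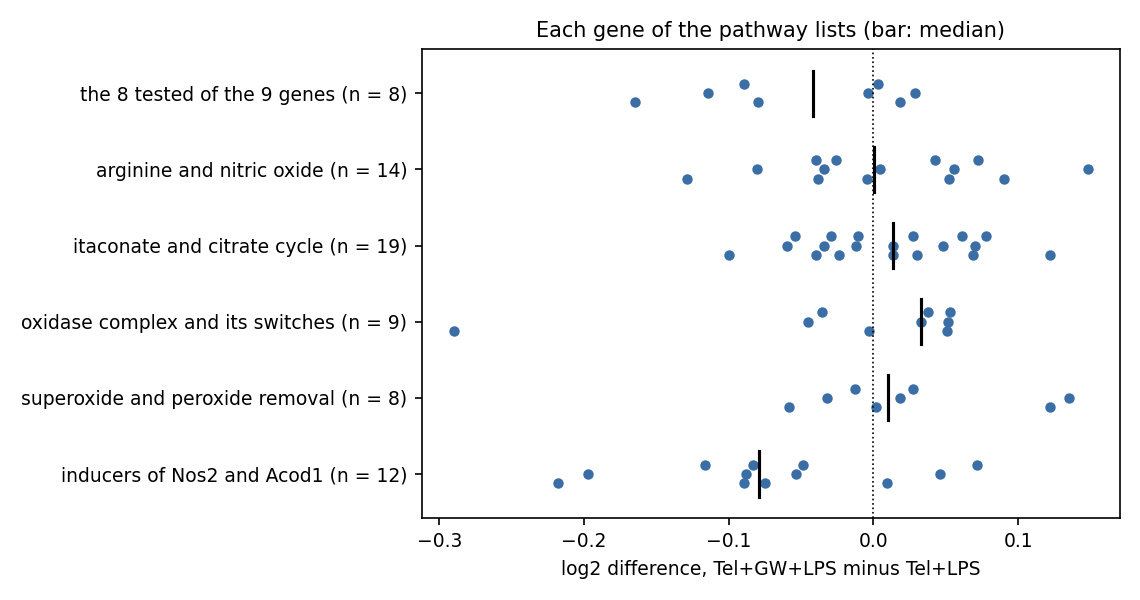
Log2 difference (Tel+GW+LPS minus Tel+LPS, horizontal axis) of each tested gene, 1 row per list, with a bar at the median. The 8 tested members run from -0.16 to 0.029. The median of the list of inducers, which also holds the inhibitor gene Nfkbia, lies lowest, at -0.079.

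The list of inducers of Nos2 and Acod1, factors and receptors that also include the inhibitor gene Nfkbia, had the lowest median of the 5 pathway lists. It was -0.079 over 12 tested of 15, beside -0.019 over all genes. The median was -0.037 without replicate 2 of Tel+LPS and -0.052 with quantile normalization repeated. Of the 12, 3 were positive and 9 negative, beside 58.8% negative over all genes. None passed in either direction by limma, and 1 had an unadjusted p under 0.05, beside 4.45% of all genes. Irf1, a factor needed for Nos2 induction in mouse macrophages, had values of 7.56, 7.58 and 7.53 without GW9662 and 7.25, 7.44 and 7.33 with it. Its 3 arrays with GW9662 were all lower, and its difference was -0.22 ± 0.070 (limma adjusted p = 0.949; 0.105 to 1 over 16 alternatives). Nfkbia, the inhibitor that NF-kB induces against itself, had values of 11.90, 11.88 and 11.99 without GW9662 and 11.64, 11.91 and 11.62 with it. Replicate 2 with GW9662 was again the array that overlapped, and the difference was -0.20 ± 0.089 (limma adjusted p = 0.994), or -0.29 without that replicate. Irf8 and Cebpb, myeloid factors, differed by 0.072 ± 0.070 and 0.046 ± 0.086, and without replicate 1 of Tel+LPS by 0.020 and -0.019. In 3 of the 12 the groups did not overlap, all lower, beside 5.36% lower over all genes tested, namely Irf1 and the receptor chains Ifnar1 (-0.083) and Ifngr1 (-0.090). The last 2 were named after their values were seen.

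**Figure D5:**
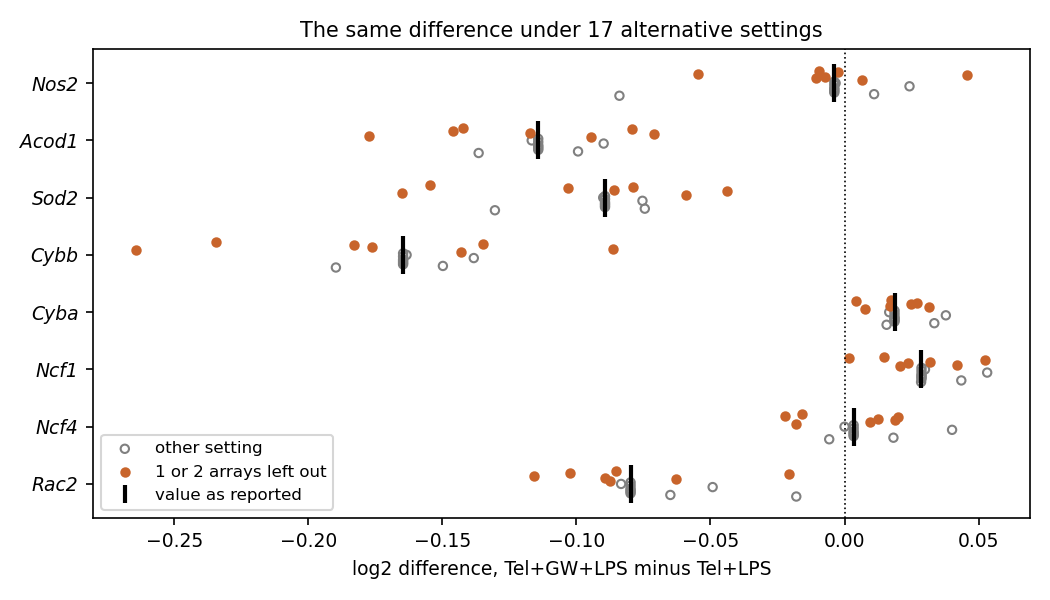
Log2 difference (Tel+GW+LPS minus Tel+LPS, horizontal axis) of each tested member as reported (bar) and under 17 alternatives, with filled points where 1 or 2 arrays were left out and open points for other settings. Cybb spans -0.26 to -0.086 and Acod1 -0.18 to -0.071, both below 0 throughout, while Nos2 and Ncf4 cross 0.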

How the data were processed

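Total RNA of 6 samples was hybridised to Affymetrix mouse gene arrays, 1 per sample. The authors deposited log2 RMA values, computed in Expression Console per the submitters' processing notes. Affymetrix Power Tools 1.4.1.46 did this by background correction, quantile normalization of all arrays together and median polish to 1 log2 value per probe set, per the file headers. A change common to most transcripts is removed by this normalization. The file headers name a later array than the labelling protocol does. Of 41345 probe sets, 23521 carried 1 gene symbol, 1820 several and 16004 none, by GEO's platform annotation, which can be old.

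Each gene was its brightest single-symbol probe set, and genes with a mean of at least 6.15 were tested in R 4.3.3 using limma 3.58.1 (group as the only term; Benjamini-Hochberg; threshold 0.05). Arg1 was read from the fit without that filter. The fit was also run on simulated data with independent noise on each array. No simulated array was made to stand apart, so that run does not cover this feature of the real arrays. Promoter letters were searched with Python 3.11.15. The genes and lists were chosen with earlier results of these data known. All 9 members are named. From each pathway list, the genes past the threshold and the 2 with the smallest p in each direction are named, and likeness to a member is given for the 3 nearest genes. Protein sequences were not used here. The 17 alternatives changed the filter, probe sets per gene, table, scaling, replicate block, array weights, moderation and arrays included. Precision is limited by the number of arrays.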

Additional observations from a re-analysis of the deposited data

How the results depend on the processing

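No member passed the threshold under any of the 17 alternatives (smallest adjusted p = 0.235, Cybb with array weights), and no list gene did. Of the 8 tested members 6 kept their sign throughout. Changes of filter, moderation, replicate block or probe sets per gene could not move a member's difference, so only the other alternatives bear on its sign. Nos2 took the opposite sign with arrays centred on the median (0.011), with quantile normalization repeated (0.024) and with 1 array left out (-0.055 to 0.046), and Ncf4 with array weights (-0.0057), with 1 array left out (-0.022 to 0.020) and without both arrays that stood apart (-0.016). Of the 20 list genes named by rule, 16 kept their sign. With 1 array left out Cebpb ranged from -0.019 to 0.11 (-0.0041 without replicate 2 of Tel+GW+LPS), Odc1 from -0.0036 to 0.16 and Prdx3 from -0.098 to 0.013. Prdx3 was 0.00024 with quantile normalization repeated, and Irf8 was -0.0085 as the mean of its probe sets. The causes were not tested.

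Over all genes, 5 passed. The number was 49 with array weights, 10 with either rescaling, 12 with a trended robust prior, 1 with no level filter, and 0 with no moderation of the spread, without both arrays that stood apart or with the replicate block. With 1 array left out it was 0 to 2. An unadjusted p under 0.05 was found for 543 genes, for 610 without moderation, for 379 with the replicate block, for 944 without both arrays that stood apart and for 2013 with array weights. Same-numbered samples deviated with correlations of 0.29, -0.45 and -0.12. These values gave no sign of pairing by replicate number, but with 3 arrays a group they cannot exclude it. The replicate block cannot move a difference when both groups hold the same replicate numbers. It changed the SE (Cybb -0.16, SE 0.10) and no call of a member. With 3 arrays a group, the unadjusted 95% intervals of the members reached 0.14 to 0.22 on either side of the estimate, and larger differences still missed the threshold over all genes (Prkcb, -0.29; Irf1, -0.22).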
